A study of Mus musculus with 6 samples.

Results

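Natural killer (NK) cells of the tibialis anterior muscle (TAM) were selected on 9 genes. A cell was counted when it had at least 1 unique molecular identifier (UMI, a tag that counts one captured transcript once) of *Nkg7*, at least 1 UMI of *Klrd1* or *Klre1*, and no UMI of *Cd3d*, *Cd3e*, *Cd3g*, *Cd79a*, *Csf1r* or *Pdgfra*. The last 6 genes mark T cells, B cells, myeloid cells and fibro-adipogenic progenitors (FAPs). The gate kept 449 of 11207 cells (4.01%), and 419 of the 449 (93.3%) came from muscle taken 5 days post injury (dpi). The levels of these 9 genes are therefore no result. Of NK markers that the gate did not use, *Gzma* and *Eomes* were found in most of the cells: 391 of the 449 cells had a UMI of *Gzma*, which encodes the granule protease granzyme A, 340 had a UMI of the transcription factor gene *Eomes*, and 424 had at least 1 of these. *Ncr1*, which encodes the NK receptor NKp46, was found in 109 of the 449 cells and in 0 of the 3 cells of hypothyroid muscle at 0 dpi. *Ptprc*, the pan-leukocyte gene that encodes CD45, was detected in 445 cells.

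NK cells are innate lymphocytes that kill stressed, infected or transformed cells without a rearranged antigen receptor. They read a target through germline-encoded receptors, some activating (NKp46 from *Ncr1*, NKG2D from *Klrk1*) and some inhibitory (many of the Ly49 receptors of the *Klra* genes and the CD94 complex of *Klrd1*), and they act through perforin and granzymes and through cytokines such as interferon-γ. Interleukin-15, read through the receptor chain encoded by *Il2rb*, maintains them, and *Eomes* and *Tbx21* direct their development.

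Male mice 3 to 5 months old received either a control diet or a low-iodine diet with 0.15% propylthiouracil (PTU), an inhibitor of thyroid hormone synthesis, which makes mice hypothyroid. The diets began 3 weeks before cardiotoxin was injected into the right TAM, and muscles were taken without injury (0 dpi) and at 5 and 14 dpi. Per the labels, all mice, controls included, carried a Fucci2aR cell cycle reporter allele at *Gt(ROSA)26Sor* on a B6;129 background, and per the study's methods they were negative for Cre. Cells of 3 mice were pooled into each library after enzymatic digestion of the muscle, red blood cell lysis and dead cell removal, and each combination of diet and day was 1 library, 6 in all. With 1 library per group no group had a replicate, no test between groups was run, and no p-value is given. Every interval below is an exact 95% interval that covers counting error only, not the spread between mice, and diet cannot be told apart from library. Intervals of levels and of their ratios count each UMI as independent, so they also leave out the spread between cells.

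The libraries, as taken here, held 528 to 3294 cells with median depths of 3634 to 8055 UMIs per cell. NK cells had median depths of 1802.5, 3996.5 and 1782.5 UMIs in the control libraries at 0, 5 and 14 dpi, and of 2799, 5300 and 4134 UMIs in the hypothyroid libraries. Cells came from the first run of columns in each library's table, up to the point where the barcodes leave alphabetical order. In 5 of the 6 tables later runs followed, 7 in all, with 9062 of the 20269 columns. The later run of the control 0 dpi table and that of the hypothyroid 0 dpi table repeated cells of other libraries' first runs, and the origin of the other runs is not given in the sources used here. The paper's cell numbers at 0 and 5 dpi lie within a few cells of all columns (2304 and 4855 control, 1056 and 4309 hypothyroid). At 14 dpi the paper's cell numbers exceed all columns (6095 control and 1650 hypothyroid). Of the barcodes in the first runs, 12 occurred in more than 1 library, and 3 of the 449 NK cells carried one.

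NK cells were rare in uninjured muscle, abundant at 5 dpi and rare again at 14 dpi in both diets. In control mice they made up 0.521% of cells at 0 dpi (6 of 1152), 13.3% at 5 dpi (324 of 2428, interval 12% to 14.8%) and 0.364% at 14 dpi (12 of 3294). In hypothyroid mice they made up 0.568% at 0 dpi (3 of 528), 4.41% at 5 dpi (95 of 2155, interval 3.58% to 5.36%) and 0.545% at 14 dpi (9 of 1650). The 5 dpi intervals did not overlap, and the hypothyroid share was 0.330 times the control share (0.260 to 0.416). At 0 and 14 dpi the ratios were 1.09 (0.177 to 5.11) and 1.5 (0.557 to 3.87), so a difference was not detectable at these numbers of cells.

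**Figure D1:**
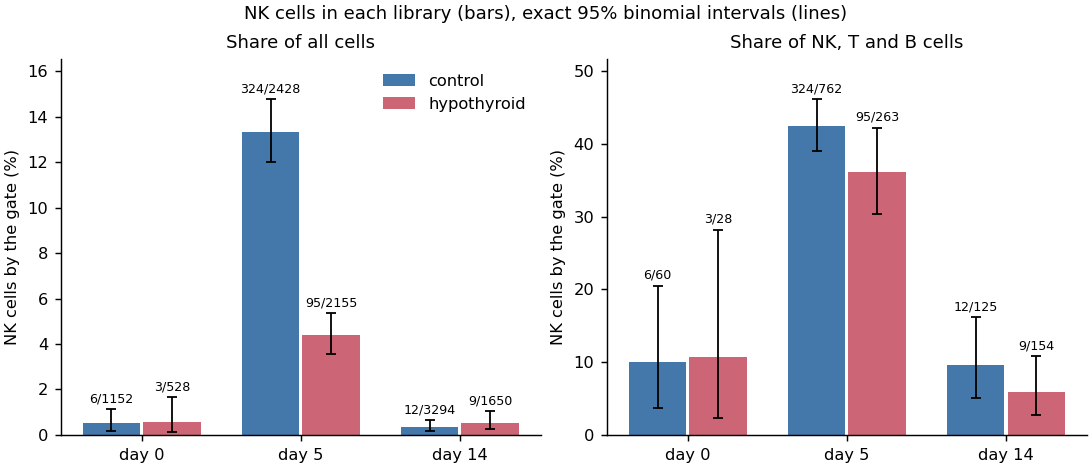
Share of NK cells (%) in each of the 6 libraries by day, as a share of all cells (left) and of NK, T and B cells together (right). Bars give the share, lines the exact 95% binomial interval, and the numbers over the bars the cells counted; the 5 dpi bars stand above those of the other days in both panels, and the diets are far apart in the left panel (13.3% and 4.41%) but not in the right (42.5% and 36.1%).

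The 5 dpi difference was shared with T cells. T cells, taken here as cells with a UMI of *Cd3d*, *Cd3e* or *Cd3g* and none of *Cd79a*, *Csf1r* or *Pdgfra*, made up 15.9% of control and 5.06% of hypothyroid cells at 5 dpi. NK cells were 45.6% of NK and T cells in the control library (41.9% to 49.3%) and 46.6% in the hypothyroid library (39.6% to 53.7%). Of NK, T and B cells together they were 42.5% (39.0% to 46.1%) and 36.1% (30.3% to 42.2%). Other cells also differed in number: stromal cells with a UMI of *Pdgfra* numbered 286 of 2428 control and 569 of 2155 hypothyroid cells, and myeloid cells 125 and 365. With these stromal and myeloid cells left out of the total, NK cells were 324 of 2017 control cells (16.1%, 14.5% to 17.7%) and 95 of 1221 hypothyroid cells (7.78%, 6.34% to 9.43%), a ratio of 0.484 (0.381 to 0.611). The part of the other cell types in the lower NK share was not tested further.

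The 5 dpi ratio rested on which columns of the tables were taken. The second later run of the hypothyroid 5 dpi table held 207 NK cells among 1626 cells (12.7%, 11.1% to 14.4%), close to the control share. With every column of both tables the counts were 337 of 4855 and 304 of 4309, and the ratio was 1.02 (0.868 to 1.19). These totals, not those of the first runs, are close to the paper's cell numbers at 5 dpi. At 0 dpi the totals of all columns were also close, but their later runs (1152 and 528 cells) were all copies of other libraries' cells. At 14 dpi the totals fell short of the paper's. The match at 5 dpi therefore does not show which columns the paper's cells came from. The condition of that run could not be read from its table, so the 5 dpi share is that of the first runs only. At 0 dpi the hypothyroid table's later run consisted of copies of 528 control 5 dpi cells, 91 of them NK cells.

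The edges of the gate were as follows. Before the zero criteria, 587 cells passed both positive criteria, and 119 of them were left out for a UMI of a *Cd3* gene, 17 for *Pdgfra*, 7 for *Csf1r* and 2 for *Cd79a*, some for more than 1 of these. Just inside, 154 NK cells had a single UMI of *Nkg7*, 79 had a single UMI of *Klrd1* and *Klre1* together, and 39 had both at 1. Just outside, 86 cells had *Nkg7* but neither *Klrd1* nor *Klre1*, 50 of them with *Gzma*, and 337 had *Klrd1* or *Klre1* without *Nkg7*. Both *Klrd1* and *Klre1* were detected in 264 of the 449 cells. A gate that asked for at least 2 UMIs on each side kept 170 control and 68 hypothyroid cells at 5 dpi.

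T cell receptor transcripts separated into 2 kinds. *Trac*, the constant segment of the T cell receptor α chain, was found in 30 of the 449 cells, at 12.3 CPM (UMIs of a gene scaled to 1000000 UMIs of the pooled cells) in control NK cells at 5 dpi against 281 in T cells. *Trbc1*, the constant segment of the β chain, was present at 253 CPM in those NK cells and 327 in T cells, and *Trbc2* at 117 and 606. Of the 17 measured genes in the T cell receptor list, 11 had a UMI in NK cells of each 5 dpi library. Whether any of these cells are T cells with an undetected *Cd3* transcript was not tested. Asking also for *Trac*, *Trbc1* and *Trbc2* at 0 left 87 of 324 control and 26 of 95 hypothyroid cells at 5 dpi, with a share ratio of 0.337.

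Stromal markers and the B cell list, mostly *Cd74*, were held mostly by a few NK cells at 5 dpi. Whether muscle fiber and myeloid markers also lay in a few cells was not tested, since the cells left out below were not picked on those lists. At 5 dpi the summed stromal list stood at 1610 CPM in control and 522 in hypothyroid NK cells, with 8 of 9 genes detected in each, and the gating gene *Pdgfra* at 0. In all, 22 NK cells held at least 20 UMIs of a stromal, endothelial and mural, B cell, or neutrophil and mast cell list, 19 of them in the control and 3 in the hypothyroid 5 dpi library. These cells held 17.3% and 6.88% of the NK UMIs of their libraries. Without them the stromal list stood at 170 and 217 CPM, and the B cell list went from 879 to 176 CPM in control and from 614 to 152 CPM in hypothyroid NK cells. With all cells, *Cd74* made up 740 and 516 CPM of the B cell list and *Ighm* 130 and 90.9 CPM, and *Ms4a1* had 0. *Cd74* also stood at 1479 CPM in T and 3378 CPM in myeloid cells of the control library. Of the 22 cells, 17 reached 20 UMIs of the B cell list. Below, cells with UMIs of another lineage or of mixed lineage are these 22 cells, by these lists only. A lower stromal or B cell list without them therefore follows in part from how they were picked. Leaving out the 22 cells did not lower every list in the control library. The myogenic and fiber list went from 1308 to 1512 CPM, the myeloid list from 1048 to 1108 CPM and the endothelial and mural list from 358 to 392 CPM. The neutrophil and mast cell list went down from 369 to 266 CPM, and the list of other innate lymphoid cells from 337 to 224 CPM. Muscle fiber transcripts were highest in the NK cells of control muscle at 14 dpi: the summed list of 11 myogenic and fiber genes stood at 4005, 1308 and 15229 CPM in control NK cells at 0, 5 and 14 dpi and at 6746, 663 and 2368 in hypothyroid NK cells. None of the 12 control cells at 14 dpi was among the 22, and the summed NK identity list (the 3 positive gating genes, *Gzma* and *Eomes*) stood at 7772 CPM in them, below the fiber list. Myeloid defining genes gave 1048 and 762 CPM at 5 dpi, of which *Ccr2*, which lymphocytes also express, made up 750 and 534.

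Set against T cells of the same libraries at 5 dpi, NK cells stood out by receptors, granule genes and *Irf8*. This is a description, since the gate chose both classes. The 15 genes with the highest NK over T level, by the median of the log2 ratios of the 2 libraries, were *Klra9*, *Klra1*, *Klra4*, *Ncr1*, *Gzmc*, *Klrb1f*, *Irf8*, *Fcgr3*, *Dennd3*, *Nrgn*, *Gzma*, *2900026A02Rik*, *Prf1*, *Arsb* and *Sulf2*. *Klra4* stood at 335 CPM in control NK cells and 27.0 in control T cells, and at 396 and 7.16 CPM in the hypothyroid library. *Gzma* stood at 1752 and 245 CPM in the control and at 2808 and 162 CPM in the hypothyroid library. *Prf1*, which encodes perforin, stood at 232 and 42.8 CPM in the control library and 244 and 14.3 CPM in the hypothyroid library. *Irf8*, an interferon regulatory factor known from myeloid and NK cells, stood at 1950 and 260 CPM in the control library and at 1101 and 59.7 CPM in the hypothyroid library.

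The 15 genes lowest in NK cells were *Cd8b1*, *Cd5*, *Themis*, *Blk*, *Fam169b*, *Bcl11b*, *Pdcd1*, *Cd8a*, *Trgc1*, *Lat*, *Cxcr6*, *Cd6*, *Tnfsf8*, *Plcg1* and *Igkc*. The T cells they are set against were themselves chosen on the *Cd3* genes. *Bcl11b*, a transcription factor gene of the T cell lineage, had 8 UMIs in the control NK pool and 426 in the control T pool at 5 dpi. *Cd5*, a T cell surface glycoprotein gene, had 0 UMIs in the NK cells and 121 in the T cells of that library, and 0 and 32 in the hypothyroid library. *Il7r*, the interleukin-7 receptor chain of naive and memory T cells and of innate lymphoid cells outside the NK lineage, stood at 49.6 CPM in NK cells and 692 in T cells of the control library. *Cxcr6*, a receptor of tissue-resident lymphocytes, stood at 7.0 and 313 CPM. Of 20 measured interferon response genes, 19 stood lower in NK than in T cells of the control library and 20 in the hypothyroid library. The share of all genes that stood lower in NK than in T cells was not counted, so these counts have no background. The exception was *Gbp7*, which encodes an interferon-induced GTPase, at 407 CPM in NK and 405 CPM in T cells of the control library. *Ifit3* stood at 40.8 CPM in NK and 492 CPM in T cells of the control library, and at 63.6 and 759 CPM in the hypothyroid library.

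The killer cell lectin-like receptor genes lie together. All 15 measured *Klr* genes map to mouse chromosome 6 (build mm39) between positions 122247555 and 130363838, a span of 8.12 Mb that also holds other genes, 100 measured genes in all. *Klre1* (129554868 to 129562791), *Klrd1* (129568745 to 129575739) and *Klrk1* (129587286 to 129600828) lie next to each other in order of position among the *Klr* genes, and *Klra4* spans 130020694 to 130044235. Of the 15 genes with the highest NK over T level, 4 lie in the span, all of them *Klr* genes, while 47 of the 6165 ranked genes (0.762%) lie there. The span was drawn from the *Klr* genes, and the gate used *Klrd1* and *Klre1* within it. These shares are therefore a description and no test of position. The Ly49 genes are closely related copies of one another, so the split of reads among *Klra1*, *Klra4*, *Klra5*, *Klra7* and *Klra9* is uncertain.

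Not every *Klr* gene was higher in NK cells. *Klrc1*, which encodes the inhibitory CD94 partner NKG2A, stood at 74.7 CPM in NK cells and 110 CPM in T cells of the control library, and *Klrc2*, its activating counterpart, at 52.5 and 48.0 CPM. *Klra5* stood at 16.9 and 33.8 CPM. *Klrb1c*, which encodes NK1.1, stood at 75.8 and 13.5 CPM, and was detected in 97 of the 324 control NK cells at 5 dpi.

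**Figure D2:**
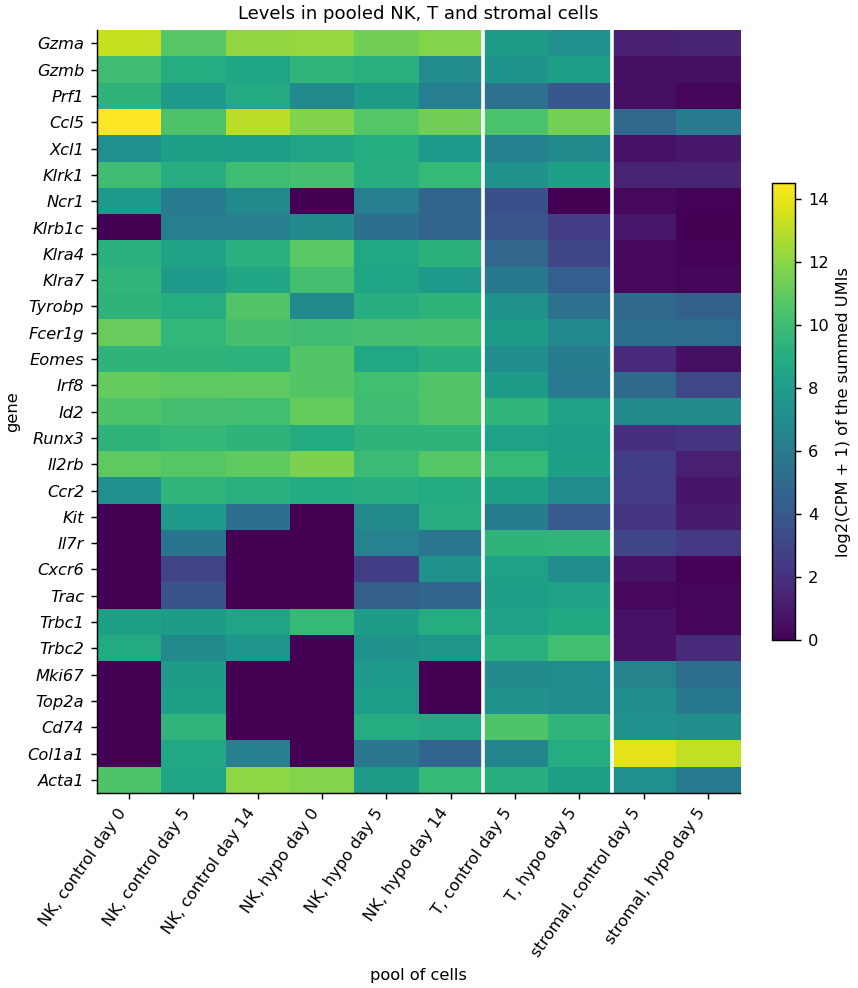
Level of each gene (rows), as log2(CPM + 1) of the summed UMIs, in pooled NK cells of the 6 libraries and in pooled T and stromal cells of the 5 dpi libraries (columns; "hypo" is hypothyroid). NK receptor, granule and *Irf8* rows are bright in the NK columns, *Il7r*, *Cxcr6* and *Trac* rows in the T cell columns, and *Acta1* in the NK columns at 0 and 14 dpi; the 0 and 14 dpi NK columns rest on 3 to 12 cells each.

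Across the 6 libraries *Gzma* and *Ccl5* were lowest at 5 dpi in both diets, and *Gzmb* was not. *Gzma* stood at 9628, 1752 and 4592 CPM in control NK cells at 0, 5 and 14 dpi and at 4819, 2808 and 3590 CPM in hypothyroid NK cells. The control 5 dpi pool was the lowest and the control 0 dpi pool the highest, and their counting intervals were 1690 to 1816 CPM and 8014 to 11471 CPM. *Ccl5*, a chemokine that draws lymphocytes and monocytes, stood at 23646, 1391 and 8360 CPM in control and at 3494, 1659 and 2673 CPM in hypothyroid NK cells, again lowest at 5 dpi in each diet. Of the 6 control cells at 0 dpi, 1 held 196 UMIs of *Ccl5* and 51 of *Gzma*, and the others at most 43 and 19. At 14 dpi 5 of the 9 hypothyroid cells had a UMI of *Gzma*, with 52 in 1 of them. *Gzmb* stood at 1078, 509 and 393 CPM in control and at 723, 605 and 127 CPM in hypothyroid NK cells, the 14 dpi pools resting on 10 and 5 UMIs. Depth moved with this pattern. Within the control 5 dpi library, *Ccl5* stood at 5007 CPM in the 81 shallowest NK cells (636 to 2397 UMIs) and at 697 CPM in the 81 deepest (6399 to 33596 UMIs), and *Gzma* at 2579 and 1575 CPM. In the hypothyroid 5 dpi library the 24 shallowest and the 24 deepest NK cells gave 8408 and 970 CPM of *Ccl5*. The part of depth, and of the few cells at 0 and 14 dpi, in the differences between days was not tested.

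*Klrk1*, *Eomes*, *Irf8* and *Il2rb*, chosen after their values were seen, spanned narrower ranges of levels over the 6 pools than *Gzma* and *Ccl5*. Other receptor genes were too sparse to say: *Ncr1* had 3, 109 and 3 UMIs in control NK cells at 0, 5 and 14 dpi and 0, 41 and 1 in hypothyroid NK cells. *Klrk1* stood at 1078, 536 and 1021 CPM in control and at 1205, 529 and 866 CPM in hypothyroid NK cells at 0, 5 and 14 dpi, lowest at 5 dpi in both diets. *Eomes* stood at 693, 701 and 667 CPM in control and at 1566, 403 and 560 CPM in hypothyroid NK cells, so its lowest pool was the hypothyroid one at 5 dpi. *Irf8* stood at 2157, 1950 and 1963 CPM and at 1566, 1101 and 1553 CPM. *Il2rb* stood at 1926, 1671 and 2002 CPM and at 3253, 940 and 1680 CPM. For *Irf8* and *Il2rb* too the hypothyroid 5 dpi pool was the lowest of the 6, although the intervals of the hypothyroid 0 dpi pool of 3 cells were wide (834 to 2678 CPM for *Irf8*). With a pool of 3 to 12 cells, a gene at 0 could still have stood at up to 76.4 to 361 CPM, the level of 3 counts, so no gene was called absent there. *Mki67*, a gene of dividing cells, had 416 and 123 UMIs in the 5 dpi pools and 0 in the other 4.

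The comparison of diets was made at 5 dpi, the only day with at least 20 NK cells in both libraries. Of 8182 genes with at least 20 UMIs in the 2 pools together, 211 (2.58%) were at least 2-fold higher and 1086 (13.3%) at least 2-fold lower in hypothyroid than in control NK cells. In all, 5530 of them (67.6%) lay below 1. The counts of list members below are to be read against these shares of 2.58%, 13.3% and 67.6%. The median ratio over these genes was 0.841, a shift of −0.25 on the log2 scale, and it was 0.828 in T cells. Hemoglobin, mitochondrial and ribosomal protein genes took 25.2% of the NK UMIs in the control and 33.0% in the hypothyroid library. Scaled without them, the median shift was −0.12, and 346 genes were at least 2-fold higher and 802 lower, so that 30.1% of the genes past 2-fold were higher where it had been 16.3%. Divided by their median, the ratios gave 443 and 675 genes (39.6% higher). Without the 22 cells that held UMIs of another lineage, 234 and 914 of 7644 genes were past 2-fold. The counts were nearly balanced with all columns of the tables (187 higher and 230 lower of 9023), and stood at 144 and 625 of 3256 in cells without T cell receptor UMIs. Ratios below are on the scale of all UMIs and are to be read against the median of 0.841.

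The largest ratios between diets were not particular to NK cells. Ranked by the bound of the interval nearest 1, the genes with the highest ratios included *H2ac24*, *Gm10076*, *mt-Nd4l* and *Ctla2b*. *H2ac24*, a histone H2A gene, had 35 UMIs in control and 448 in hypothyroid NK cells, a ratio of 39.9 (28.2 to 58.0), and its ratio in T cells was 96.6. The predicted gene *Gm10076* had ratios of 16.7 in NK and 13.9 in T cells, *mt-Nd4l*, a mitochondrial complex I subunit, of 17.5 and 19.2, and *Ctla2b* of 15.6 and 17.2. In stromal and myeloid cells, *H2ac24* had ratios of 30.8 and 59.2. *H2ac24*, *Gm10076* and *mt-Nd4l* were past 2-fold in NK, T, stromal and myeloid cells alike.

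Among the 5 named lowest, 3 rested on very few cells. *Ccn2*, a matricellular growth factor gene of stromal cells, had 108 UMIs in control NK cells, 104 of them in 1 cell, and 0 in hypothyroid NK cells. Against the level of 3 counts over the pool, the ratio was at most 0.0865. *S100a9*, a neutrophil calcium-binding protein gene, had 146 and 1 UMIs, with 137 in 1 control cell. *Col1a2*, a collagen gene, had 489 and 11 UMIs, and its ratio went from 0.0701 to 0.692 when the 22 cells with UMIs of another lineage were left out. *Hmox1*, heme oxygenase 1, had 800 and 21 UMIs, 378 of the control UMIs in 3 cells, and its ratio went from 0.0818 to 0.163. *Wdr89*, a WD repeat gene, was spread over 179 control cells, with 361 and 7 UMIs and ratios of 0.0604 in NK and 0.114 in T cells. Without the 22 cells, the 5 lowest genes by the same ranking were *Wdr89*, *Lars2*, *Pvalb*, *Pou6f1* and *Hmox1*. With all NK cells, *Pvalb*, a muscle fiber calcium buffer gene, stood at 213 and 29.1 CPM. Its ratio was 0.137 with all NK cells and 0.125 without the 22.

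**Figure D3:**
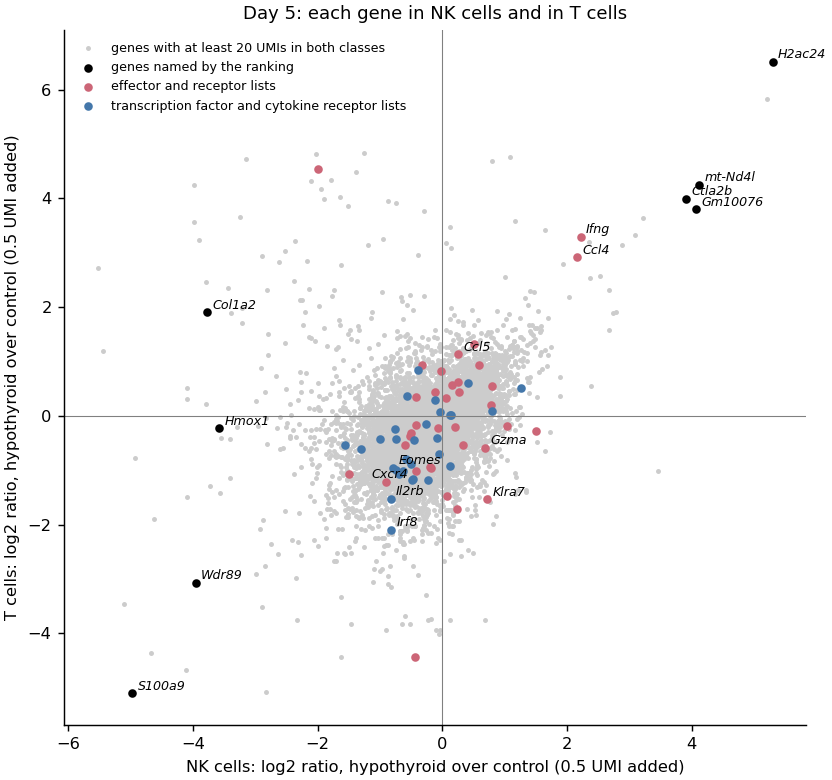
Log2 ratio of hypothyroid over control at 5 dpi for each gene in NK cells (x axis) and in T cells (y axis), with 0.5 UMI added to each sum; points are genes with at least 20 UMIs in both classes. Genes at the upper right (*H2ac24*, *Gm10076*, *mt-Nd4l*, *Ctla2b*) were higher in both classes, *Irf8* and *Cxcr4* lower in both, and *Gzma* and *Klra7* were higher in NK cells but lower in T cells.

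The activating and inhibitory receptors differed gene by gene. Of 13 tested genes in the list of NK surface receptors outside the Ly49 family, 2 (15.4%) were at least 2-fold higher and 2 (15.4%) at least 2-fold lower in hypothyroid cells, against 2.58% and 13.3% of all genes, with a median ratio of 0.958. The share of lower genes was thus near that of all genes. *Ncr1* stood at 63.6 and 74.5 CPM (ratio 1.17, 0.798 to 1.69) and *Klrk1* at 536 and 529 CPM (0.988, 0.863 to 1.13). *Klrg1*, an inhibitory receptor of mature NK cells, had 42 UMIs in each library, in 39 control and 22 hypothyroid cells, a ratio of 3.12 (1.98 to 4.90) that turned to 0.482 in cells without T cell receptor UMIs. *Cd226*, the activating receptor DNAM-1, had 22 and 20 UMIs and a ratio of 2.83 (1.47 to 5.44). *Fcgr3*, the low-affinity Fc receptor CD16 that drives antibody-dependent killing, stood at 65.9 and 25.4 CPM (0.386, 0.205 to 0.675), *Crtam*, an adhesion receptor of activated cytotoxic lymphocytes, at 120 and 41.8 CPM (0.350, 0.217 to 0.539), and *Klrb1c* at 75.8 and 40.0 CPM (0.527, 0.319 to 0.833).

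All 5 tested Ly49 genes lay above 1, and 2 of them (40.0%, against 2.58% of all genes) were at least 2-fold higher. The median ratio of the family was 1.65 against 0.841 over all genes tested. *Klra1* stood at 67.1 and 147 CPM (2.19, 1.63 to 2.94), *Klra7* at 222 and 365 CPM (1.64, 1.38 to 1.95), *Klra4* at 335 and 396 CPM (1.18, 1.01 to 1.38) and *Klra9* at 40.3 and 50.9 CPM (1.26, 0.784 to 1.99). *Klra4* turned to 0.933 in cells without T cell receptor UMIs, and *Klra9* to 0.879 with all columns of the tables. In T cells the summed Ly49 genes stood at 149 and 54.9 CPM, the opposite order. Of the adaptors that carry receptor signals, *Fcer1g*, the γ chain paired with NKp46 and CD16, stood at 788 and 1220 CPM (1.55, 1.41 to 1.70), and its ratio in T cells was 0.439. *Tyrobp*, which encodes DAP12, stood at 502 and 538 CPM (1.07, 0.935 to 1.22), and *Hcst*, which encodes the NKG2D partner DAP10, at 91.0 and 189 CPM (2.08, 1.61 to 2.68). *Zap70*, a kinase downstream of these adaptors, stood at 39.7 and 18.2 CPM (0.458, 0.210 to 0.895). Of the 12 adaptor and kinase genes tested, 1 (8.33%) was past 2-fold each way.

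None of the 17 granule genes passed 2-fold in either direction, and their median ratio was 1.04. The granzyme A gene *Gzma* stood at 1752 and 2808 CPM in the control and hypothyroid pools, a ratio of 1.60 (1.51 to 1.70), against 0.663 in T cells. The direction of *Gzma* did not hold in every selection of cells: it was 1.22 with all columns of the tables and 0.903 in the 87 control and 26 hypothyroid cells without T cell receptor UMIs. *Gzmb*, which encodes granzyme B, stood at 509 and 605 CPM (1.19, 1.05 to 1.35) and *Prf1* at 232 and 244 CPM (1.05, 0.856 to 1.28). *Serpinb9*, an inhibitor that protects killer cells from granzyme B, stood at 561 and 494 CPM (0.882, 0.768 to 1.01). 

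Of 9 tested cytokine and chemokine genes, *Ifng* and *Ccl4* were at least 2-fold higher and *Csf2* at least 2-fold lower. *Ifng*, which encodes interferon-γ, had 30 UMIs in 20 control cells and 45 UMIs in 15 hypothyroid cells, a ratio of 4.67 (2.88 to 7.68), and its ratio in T cells was 10.1. Of the 45 UMIs, 18 lay in 1 cell. *Ccl4*, a chemokine that draws monocytes and T cells, stood at 79.9 and 358 CPM (4.48, 3.58 to 5.61), with a ratio of 7.56 in T cells. The *Ccl4* UMIs lay in 24 control and 28 hypothyroid NK cells, with 84 in 1 control cell and 106 in 1 hypothyroid cell. Stromal cells of these libraries carried 9.48 and 67.6 CPM of *Ccl4*. *Xcl1*, a chemokine for cross-presenting dendritic cells, stood at 291 and 507 CPM (1.74, 1.5 to 2.02), and *Ltb*, lymphotoxin β, at 84.6 and 145 CPM (1.72, 1.29 to 2.27). *Ccl5* stood at 1391 and 1659 CPM (1.19, 1.10 to 1.29), against 2.19 in T cells, and turned to 0.882 with all columns. *Csf2*, which encodes GM-CSF, had 105 UMIs in 3 control cells and 8 UMIs in 7 hypothyroid cells, and its ratio of 0.237 became 16.6 without the cells that held UMIs of another lineage.

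Receptors for cytokines lay below 1 at close to the share of all genes. Of 14 tested, 10 (71.4%, against 67.6% of all genes) lay below 1, 2 (14.3%, against 13.3%) were at least 2-fold lower and 1 at least 2-fold higher, with a median of 0.717 in NK and 0.720 in T cells. *Il2rb* stood at 1671 and 940 CPM (0.562, 0.511 to 0.618) and at 850 and 294 CPM in T cells. *Il18rap*, a chain of the interleukin-18 receptor, stood at 237 and 145 CPM (0.612, 0.476 to 0.780), and *Il10ra*, which binds interleukin-10, at 279 and 138 CPM (0.495, 0.384 to 0.632). *Il7r* went the other way, with 49.6 and 85.4 CPM (1.72, 1.18 to 2.49), as did *Il2rg*, the common γ chain, with 194 and 213 CPM (1.10, 0.879 to 1.36). Among 12 tested chemokine receptor and egress genes, 2 (16.7%, against 13.3% of all genes) were at least 2-fold lower and none 2-fold higher. *Cxcr4*, the CXCL12 receptor that holds NK cells in bone marrow, stood at 809 and 345 CPM (0.427, 0.365 to 0.497), and its ratio in T cells was 0.429. *Ccr2*, a receptor that takes cells to inflamed tissue, stood at 750 and 534 CPM (0.713, 0.626 to 0.810).

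Of 16 tested transcription factor genes of the NK lineage, 14 (87.5%, against 67.6% of all genes) lay below 1, 1 (6.25%, against 13.3%) was at least 2-fold lower and none 2-fold higher. The median was 0.702 in NK cells and 0.696 in T cells, against 0.838 and 0.829 over the genes tested in both. *Eomes* stood at 701 and 403 CPM (0.576, 0.497 to 0.665) and *Irf8* at 1950 and 1101 CPM (0.565, 0.517 to 0.616), and in T cells their ratios were 0.508 and 0.230. *Gata3*, shared with T cells and other innate lymphoid cells, stood at 124 and 49.1 CPM (0.397, 0.255 to 0.594). *Id2*, a repressor needed by innate lymphoid lineages, stood at 1234 and 1054 CPM (0.854, 0.778 to 0.937), *Runx3* at 825 and 689 CPM (0.835, 0.744 to 0.936), *Ets1* at 743 and 540 CPM (0.726, 0.638 to 0.825), and *Zeb2*, a factor of late NK maturation, at 344 and 205 CPM (0.597, 0.483 to 0.731). *Tbx21*, which encodes T-bet, had 59 and 14 UMIs, a ratio of 0.739 (0.381 to 1.34). *Eomes*, *Irf8*, *Il2rb* and *Cxcr4* stayed below 1 in each of the 6 alternatives, with values of 0.221 to 0.670, 0.287 to 0.783, 0.470 to 0.884 and 0.257 to 0.786.

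Markers of maturity did not move as 1 group. Of 8 tested genes of mature NK cells, 4 lay above and 4 below 1, and of 10 of immature NK cells, 6 lay above and 4 below. *Kit*, a receptor of immature NK cells and of other progenitors, stood at 235 and 114.5 CPM (0.487, 0.367 to 0.636), and was detected in 131 of 324 control and 26 of 95 hypothyroid NK cells. Of 8 tested genes of group 1 innate lymphoid cells and tissue residence, none passed 2-fold. Their list summed to 807 and 1243 CPM (1.54, 1.40 to 1.69) in NK cells, of which *Rgs1*, a regulator of G protein signaling also found in activated lymphocytes, made up 558 and 956 CPM, and it summed to 2196 and 2246 CPM in T cells. *Cxcr6* had 12 and 3 UMIs in NK cells. Of the genes of other innate lymphoid cells, *Il1rl1*, the interleukin-33 receptor gene, had 237 UMIs in 17 control cells and 12 in 9 hypothyroid cells, with a ratio of 0.158 that became 1.79 without the cells of mixed lineage.

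Other gene groups were described in the same way. Of 19 tested interferon response genes none passed 2-fold, with a median of 1.07 in NK and 1.54 in T cells; *Isg15*, a ubiquitin-like interferon target, stood at 114 and 174 CPM (1.53, 1.18 to 1.96; 2.91 without the cells of mixed lineage) in NK and at 372 and 1074 CPM in T cells. Of 18 nuclear genes for oxidative phosphorylation, 16 (88.9%, against 32.4% of all genes) lay above 1 with a median of 1.42, and the median was also 1.42 in T cells; *Atp5e*, a subunit of the ATP synthase, stood at 292 and 653 CPM (2.24). Of 10 mitochondrially encoded transcripts, 6 (60.0%, against 13.3%) were at least 2-fold lower, with a median of 0.421 in NK and 0.445 in T cells. *mt-Co3* stood at 11211 and 3791 CPM (0.338), while *mt-Co1* stood at 5075 and 5327 CPM (1.05). Of 6 tested genes of thyroid hormone action, *Klf9*, a direct thyroid hormone target in many tissues, was at least 2-fold lower with 73 UMIs in 31 control cells and 4 UMIs in 3 hypothyroid cells (0.171, 0.0453 to 0.456), and the other 5 were within 2-fold. That is 1 of 6 (16.7%) lower, near the 13.3% of all genes. The *Klf9* ratio in T cells was 0.811, and the difference between NK and T cells was not tested. *Klf9* was also lower in stromal cells (492 and 218 CPM) and in myeloid cells (90.6 and 28.9 CPM) of the hypothyroid library. The *Klf9* ratio without the cells of mixed lineage is not given here.

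To compare shares of cells at equal depth, 1000 UMIs were drawn at random from each cell, which left out 4 of 324 control and 6 of 95 hypothyroid NK cells. A UMI of *Gzma* was then found in 70.3% of control (65.0% to 75.3%) and 74.2% of hypothyroid NK cells (63.8% to 82.9%), from 87.7% and 85.3% before thinning. In T cells the thinned shares were 6.4% and 5.77%, and in stromal cells, which should lack the gene, 0% and 0.359%. The median depths before thinning were 3996.5 and 5300 UMIs in NK cells, 2385 and 2938 in T cells and 14726.5 and 15240 in stromal cells. For *Gzma* the intervals of the diets overlapped, although the pooled level differed 1.60-fold.

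*Eomes* was detected in fewer hypothyroid than control NK cells. It was found in 47.8% of control (42.2% to 53.4%) and 28.1% of hypothyroid NK cells (19.1% to 38.6%), and these intervals did not overlap; before thinning the shares were 79.6% and 61.1%, and stromal cells gave 0% and 0.359%. *Irf8* was found in 75.6% (70.5% to 80.2%) and 64.0% (53.2% to 73.9%), *Il2rb* in 77.5% (72.5% to 82.0%) and 65.2% (54.3% to 75%), and *Kit* in 16.9% (12.9% to 21.4%) and 7.87% (3.22% to 15.5%). *Fcer1g* was higher in the hypothyroid library, with 54.1% (48.4% to 59.6%) and 67.4% (56.7% to 77.0%). The intervals of *Irf8*, *Il2rb*, *Kit* and *Fcer1g* overlapped. *Klra4* was found in 30.9% and 34.8%, *Prf1* in 21.9% and 19.1%, and *Ccl5* in 57.8% and 56.2% of NK cells.

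**Figure D4:**
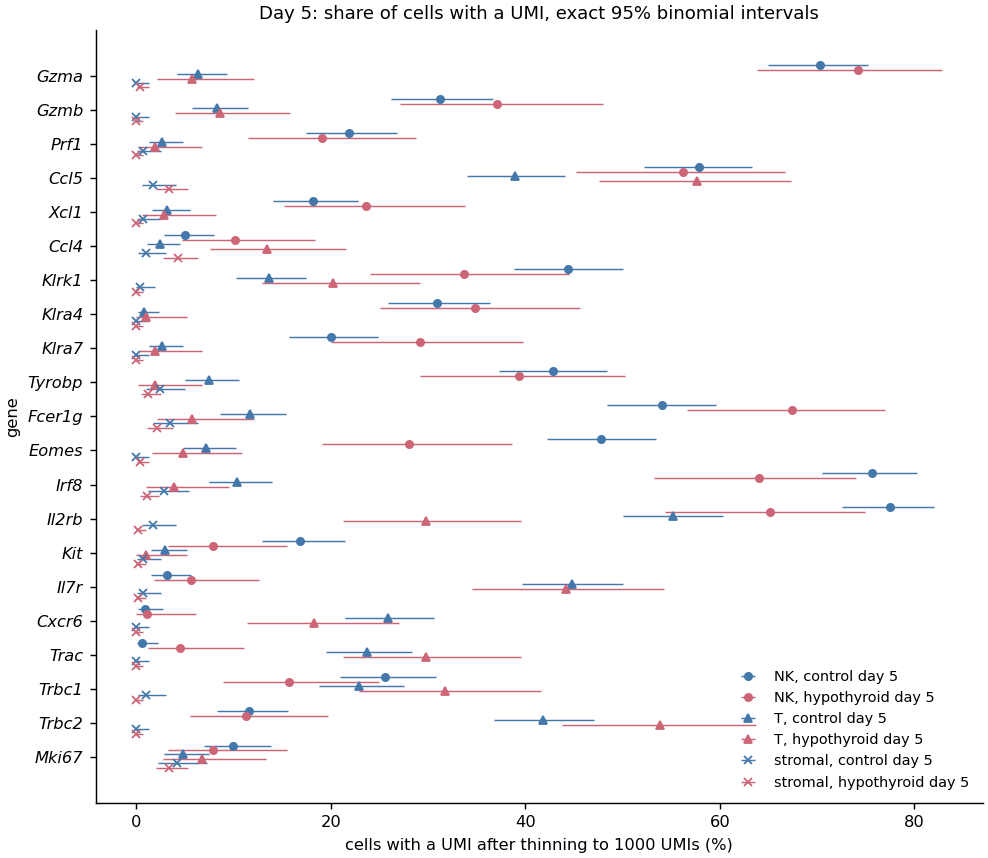
Share of cells (%) at 5 dpi with a UMI of each gene after thinning to 1000 UMIs per cell, in NK cells (circles), T cells (triangles) and stromal cells (crosses) of the control (blue) and hypothyroid (red) libraries, with exact 95% binomial intervals. *Gzma*, *Irf8* and the Ly49 genes separate NK from T cells, *Il7r* and *Trac* the reverse, and *Eomes* is at 47.8% and 28.1% in NK cells of the 2 diets.

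At least 3 of 25 listed proliferation genes were detected in nearly equal shares of NK cells of both diets at 5 dpi. After thinning, at least 3 of 25 proliferation genes had a UMI in 127 of 320 control NK cells (39.7%, 34.3% to 45.3%) and in 34 of 89 hypothyroid NK cells (38.2%, 28.1% to 49.1%). The share before thinning was 77.8% and 81.1%. In T cells the thinned shares were 25.3% (21.0% to 30.1%) and 23.1% (15.4% to 32.4%), in B cells 13.3% and 5.56%, in stromal cells 32.3% and 22.4%, and in myeloid cells 13.6% and 12.3%. At other days the same measure gave 3 of 6 and 4 of 12 control NK cells at 0 and 14 dpi and 1 of 2 and 1 of 8 hypothyroid NK cells, pools in which *Mki67* had 0 UMIs, and it is not read here as a call of dividing cells. *Mki67* itself had a UMI in 10.0% and 7.87% of thinned NK cells at 5 dpi, and *Top2a*, a topoisomerase of dividing cells, in 9.06% and 5.62%. The cut is a point on a range: 81 control and 24 hypothyroid NK cells had exactly 2 of the genes and 54 and 12 had exactly 3. The summed proliferation genes stood at 7495 and 7928 CPM in NK cells and at 4879 and 4906 CPM in T cells at 5 dpi, and at 4082 and 2041 CPM in control NK cells at 0 and 14 dpi. In NK cells at 5 dpi *H2az1* made up 2626 and 3028 CPM, *Tubb5* 1261 and 956 CPM, and *Hmgb2* 957 and 1349 CPM of the sum. *H2az1* was the highest of the genes in every NK pool, also in those without *Mki67*, with 1926 CPM in control at 0 dpi. The part of these genes in the cut was not tested. The level of *Top2a* stood at 308 and 273 CPM (0.885, 0.733 to 1.06) and *Mki67* at 243 and 224 CPM (0.921, 0.747 to 1.13) in NK cells. Of the 25 genes, 1 (4.0%) was at least 2-fold lower and none 2-fold higher.

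**Figure D5:**
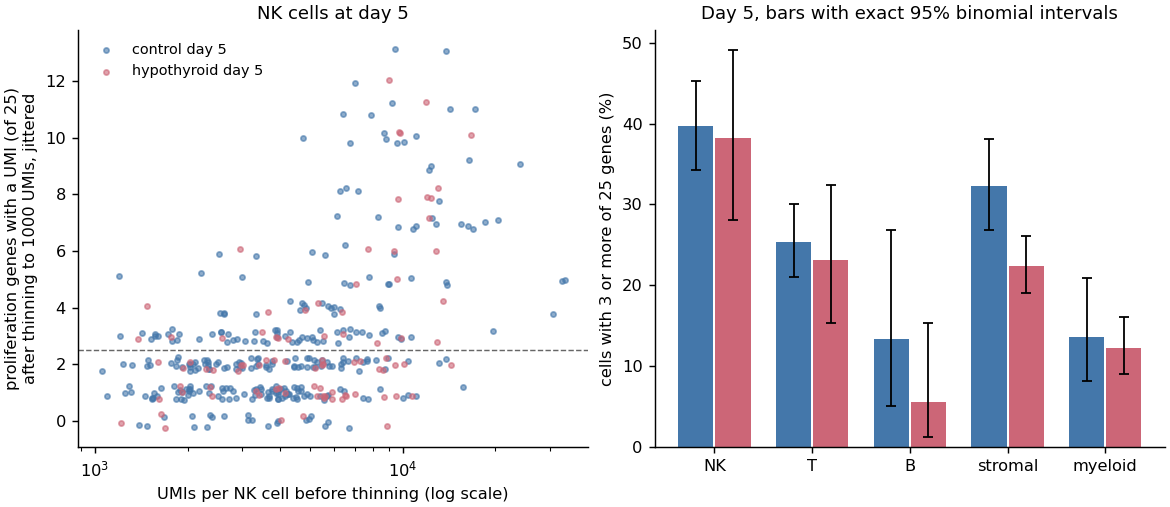
Left, number of 25 proliferation genes with a UMI after thinning to 1000 UMIs (y axis, jittered; dashed line between 2 and 3) against UMIs per cell before thinning (x axis, log scale) for NK cells of both 5 dpi libraries. Right, share of cells (%) with 3 or more of the genes by cell class, control in blue and hypothyroid in red, with exact 95% binomial intervals; NK cells stand at 39.7% and 38.2%, and the cells with most of these genes lie among the deeper ones.

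NK cells with at least 3 proliferation genes were deeper and carried less *Ccl5*, *Il7r*, *Ltb* and *Prf1* in both libraries. Their median depth was 6100 UMIs against 3398 for the other NK cells of the control library, and 7998 against 5147 in the hypothyroid library. *Ccl5* stood at 847 CPM in them and 2054 CPM in the others in the control library (ratio 0.413) and at 961 and 2276 CPM in the hypothyroid library (0.422). *Il7r* had ratios of 0.292 and 0.126, *Ltb* of 0.402 and 0.453 and *Prf1* of 0.697 and 0.565. *Eomes* and *Irf8* stood near 1, with ratios of 0.992 and 1.20 and of 1.07 and 1.01. *Gzma*, *Gzmb*, *Ccl4* and *Cxcr4* had ratios on opposite sides of 1 in the 2 libraries, with intervals that left out 1 in each. *Gzma* had ratios of 1.23 (1.14 to 1.33) in the control and 0.846 (0.764 to 0.937) in the hypothyroid library, *Ccl4* of 0.169 (0.104 to 0.264) and 3.63 (2.58 to 5.20), and *Cxcr4* of 0.723 (0.650 to 0.805) and 1.40 (1.04 to 1.91). The *Ccl4* ratios rested largely on 1 cell in each library. In the control library 1 cell held 84 of the 112 *Ccl4* UMIs of the other NK cells. In the hypothyroid library 1 cell held 106 of the 151 *Ccl4* UMIs of the cells with at least 3 proliferation genes. *Gzmb* stood at 629 and 354 CPM in the control library (1.78, 1.53 to 2.06) and at 501 and 688 CPM in the hypothyroid library (0.728, 0.580 to 0.913). *Ccl5* and *Prf1* were also lower in deeper cells at large, with *Prf1* at 421 CPM in the 81 shallowest and 165 CPM in the 81 deepest control NK cells. The 22 cells with UMIs of another lineage were not left out of this split. Without them the *Csf2* ratio between diets had changed sides. *Csf2* had 104 UMIs in the control cells with at least 3 proliferation genes and 1 UMI in the other control NK cells. The part of depth and of the 22 cells in these ratios was not tested.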

How the data were processed

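Libraries were made with 10x V3 3′ chemistry. The deposited tables hold log2(CPM + 1) values for 12436 genes per cell. According to the submitters' processing notes and the methods, the authors used Cell Ranger, Partek and build mm39, and filtered cells on UMIs, detected genes and mitochondrial share (1 joint threshold for all samples). The upper UMI limit that the methods state lies below the recovered depth of many cells. In NK cells this depth reached 33596 UMIs, and the difference was not resolved. UMIs were recovered from these log2 values by taking each cell's most frequent value above 0 as 1 UMI; 99.9% of 39334018 values were whole within 0.1. The log2 values were not tested themselves. Only the first run of columns of each table was used. UMIs were summed per library and class; shares have exact Clopper-Pearson intervals, levels exact Poisson intervals and ratios exact conditional binomial intervals (95%). A count of 0 allows up to 3 counts.

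With 1 library per group no count test was run, nor was a joint fit of diet and day over the 6 libraries, whose pools at 0 and 14 dpi hold 3 to 12 cells, and genes past 2-fold are counted without a test. Ratios needed at least 20 cells in each pool and 20 UMIs in both pools together. Named genes were the members of 31 lists, the 5 genes each way, with 50 UMIs or more in whichever pool was higher, ranked by the interval bound nearest 1, and the 15 genes each way between NK and T cells with at least 100 UMIs; the 9 gating genes were left out of the rankings, and 1 of the 5 highest is not reported here. The members and lists were chosen with earlier results of these data known. Stromal and myeloid cells were gated on *Pdgfra* and *Csf1r*, T cells on the *Cd3* genes and B cells on *Cd79a*, each with the other classes' gating genes at 0 (and *Nkg7* at 0 for stromal and myeloid cells). Cells were thinned once, with a fixed seed of 1. No doublet caller was run; 311 of 324 control and 94 of 95 hypothyroid NK cells at 5 dpi had at most 15000 UMIs. Genes such as *Klra8*, *Cd160*, *Tigit*, *S1pr5* and *Gzmm* were not analysed here. The scripts were tested on simulated data (Python 3.11.15, numpy 2.4.6, scipy 1.17.1, pandas 2.3.3, matplotlib 3.10.9).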

Additional observations from a re-analysis of the deposited data

Results flagged for a closer look

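NK cells were found in columns outside the first runs, which no comparison of the report uses as its main value. The second run of the control 5 dpi table held 13 NK cells of 2427 cells (0.536%), with *Gzma* at 3134 CPM. In the control 14 dpi table, the second run held 5 of 1152 (0.434%) and the third run 5 of 1649 (0.303%). The third run of the hypothyroid 5 dpi table held 207 of 1626 (12.7%), with *Gzma* at 1840 CPM and a median depth of 4472 UMIs, and first-run NK cells of the control 5 dpi library had *Gzma* at 1752 CPM and a median depth of 3996.5 UMIs. Each of these counts was above the 3 cells that a count of 0 allows, and none of these cells was a copy of a first-run cell of another table. In all, later runs held 232 NK cells that were no copies. The library that each run came from was not tested.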

How the results depend on the processing

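No paired analysis was run, since each group is 1 library with no replicate numbers and no result comes from a test. Matching the diets by day would have used days as replicates and was not run. No replicate could be left out. The share of all cells at 5 dpi (0.330) turned to 1.016 with all columns, and was 0.4507 with at least 2 UMIs on each side of the gate and 0.4199 without cells over 15000 UMIs; its other 3 alternatives, and all 6 of the share of NK, T and B cells at 5 dpi, (0.732 to 1.03) moved by less than the counting interval. At 0 dpi the 2 ratios were 18.64 and 7.162 with all columns, where copied cells enter, and 0 in thinned cells. At 14 dpi they were 0.3132 and 0.1078 in thinned cells and 0 without T cell receptor UMIs. Genes at least 2-fold higher numbered 62 with at least 100 UMIs, 674 with no filter and 402 with cells weighted equally; genes lower numbered 277 and 2930 under the first 2 of these, 230 with all columns and 625 without T cell receptor UMIs. Divided by the median they numbered 443 and 675, and with other scaling 346 higher. Reversed ratios without T cell receptor UMIs were *Gzma* 0.9032, *Klrg1* 0.4823, *Klra4* 0.9333, *Csf2* 10.13 and *Col1a2* 1.351. *Ccl5* was 0.8815 with all columns and 0.9867 as the mean log2 value; *Csf2* was 1.396 and *Il1rl1* 1.216 on that scale, *Csf2* 2.063 with cells weighted equally, and *Csf2* 16.6 and *Il1rl1* 1.79 without cells holding UMIs of another lineage. Leaving out those cells, the division by the median and the other scaling of the counts were chosen after seeing the data. Beyond the copied cells and the fewer cells or genes that some alternatives leave, the cause was not tested. With 3 to 12 NK cells, libraries at 0 and 14 dpi limit any comparison of levels.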
